A study of Mus musculus with 18 samples.

Results

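Limb buds of Esco2 mutant embryos at stage E10.5, counted in embryonic days, were set against control limb buds of stage E9.5, 1 day younger, to ask which genes the mutant buds had moved past the E9.5 level and which were still at it. The comparison used 6 of the series' 18 mouse libraries, namely the 3 labelled mutant, E10.5 and the 3 labelled control, E9.5. The mutants were Esco2fl/fl;Prrx1-CreTg/0 embryos, in which both Esco2 alleles are flanked by loxP sites and a Prrx1-Cre transgene, active in limb mesenchyme, can delete them. The controls were Esco2fl/fl embryos, which carry the same alleles and no Cre, so effects of Cre and of Esco2 loss cannot be told apart in these data. The 3 E10.5 controls of the same genotype served as a ruler for a normal day of growth. RNA came from individual forelimb buds and was selected for high integrity, and it was sequenced as paired reads of 150 bases. Whether replicate libraries stem from different embryos is not stated in the labels, so the p-values reflect the spread among libraries, which may be technical. The library IDs in the labels open with a number, and replicates 1 and 2 of the E10.5 mutants and of the E10.5 controls share one, as do E9.5 control replicate 2 and E9.5 mutant replicate 1. The E10.5 mutants share none with the E9.5 controls, and what the number stands for is not stated. Because the transgene acts in mesenchyme, a mutant bud also holds ectoderm, blood and vessels that keep the gene. The comparison spans a day of growth and a genotype at once, so each gene is also set against E10.5 controls.

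Esco2 encodes an acetyltransferase that modifies the cohesin ring during DNA replication so that sister chromatids stay together until mitosis. Cells that lose it divide with damaged chromosomes and commonly activate the p53 pathway. A forelimb bud starts as mesenchyme under a cap of ectoderm. Its rim, the apical ectodermal ridge, secretes fibroblast growth factors (FGFs) that keep the mesenchyme growing, and its posterior edge secretes Sonic hedgehog. Over the following day the bud turns on the 5' genes of the HoxA and HoxD clusters from base to tip, turns off early embryonic timing genes, and forms the Sox9-positive condensations from which cartilage develops.

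Counts per library totalled 44402251 to 48147568 in the E10.5 mutants, 44992366 to 49489072 in the E10.5 controls and 47740565 to 56230058 in the E9.5 controls. Levels are given as CPM, the count per 1e+06 counts of the TMM-adjusted library, and values of the 3 libraries follow replicate order. Differences are log2 values ± standard error from a single edgeR fit to all 18 libraries, and a gene rose, fell or changed where the Benjamini-Hochberg adjusted p of its quasi-likelihood test over 20118 genes was under 0.05. Of the E9.5 controls, replicate 1 stood apart. Its genes' deviations from the mean of the 6 libraries compared correlated with gene length at -0.56 across 12611 genes (Spearman, a description). The same correlation was 0.455 and 0.249 in the other E9.5 controls and 0.294, 0.123 and 0.186 in the E10.5 mutants. Of the E10.5 mutants, replicate 3 had the highest share of counts from haemoglobin genes, 1.96%, in a group whose lowest share was 0.634%, whereas E9.5 controls had 0.23% to 0.41%. Leading counts are therefore also given without this pair of libraries. In bulk tissue, fewer cells of a type and less RNA per cell cannot be told apart.

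Esco2 itself was at 21.9, 18.9 and 22.3 CPM in the E10.5 mutants, 29.4, 33.6 and 28.1 CPM in E10.5 controls and 25.0, 28.1 and 27.2 CPM in E9.5 controls. The 3 mutants were the lowest of the 9 libraries, without overlap. The difference from E9.5 controls was -0.35 ± 0.14 (adjusted p = 0.0976) and that from E10.5 controls was -0.53 ± 0.14 (adjusted p = 0.02). Counts covered all exons of the gene, so they do not show whether the floxed part was deleted. The defining forelimb markers Prrx1 and Tbx5 were present in every library, at 153 to 283 and 50.8 to 65.5 CPM in the E10.5 mutants. The hindlimb factor Pitx1 was at 0.791 to 1.52 CPM in these mutants and at 0.549 to 4.4 CPM in E9.5 controls. Tbx4, another hindlimb factor, rose in E10.5 mutants against E9.5 controls.

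On the first principal component of all 18 libraries, which held 51.2% of the variance, the E10.5 mutants lay between the other groups. Their scores were -5.06, 1.37 and -1.24, against 14.5, 21.9 and 16.2 in E10.5 controls and -71.4, -42.4 and -40.9 in E9.5 controls. On the second component, with 15.4% of the variance, the E10.5 mutants were apart from both control groups. They scored -26.2, -33.7 and -40.3, whereas E10.5 controls scored 14.7, 11.1 and 15.4 and E9.5 controls scored 2.83, 20.9 and 14.4.

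**Figure D1:**
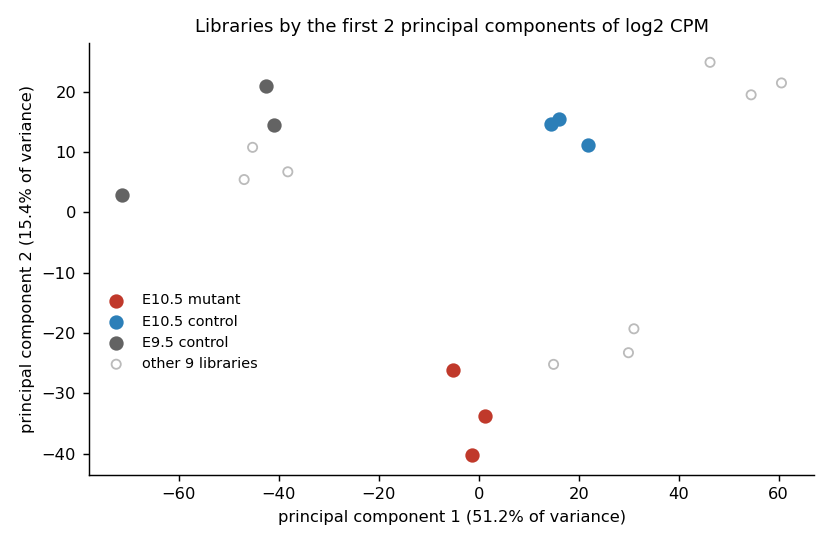
Principal components 1 and 2 of log2 CPM in all 18 libraries, with the 3 E10.5 mutants, 3 E10.5 controls and 3 E9.5 controls filled and the other 9 libraries as open grey circles; each point is a library and the axes are component scores. The mutants lie between the control stages on component 1, nearer to the E10.5 controls, and below both on component 2.

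Between E10.5 mutants and E9.5 controls, 2678 genes were higher (13.3% of the genes tested) and 1468 were lower (7.3%). Changes of at least 2-fold were found for 1834 higher genes (9.12%) and 404 lower genes (2.01%). Without both libraries that stood apart, the counts were 2061 higher and 1399 lower. The count of lower genes depended on single libraries. It was 956, 723 and 791 without E10.5 mutant replicates 1, 2 and 3 in turn, and 2351 without E9.5 control replicate 2.

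A normal day of growth was defined by the genes that changed at least 2-fold between E10.5 and E9.5 controls, called stage genes here. There were 2119 of them, 1501 higher (7.46%) and 618 lower (3.07%) at E10.5. The E10.5 mutants had moved the same way as the E10.5 controls for 956 of the 1501 higher stage genes (63.7%) and for 254 of the 618 lower ones (41.1%). These 1210 genes are called advanced. Their number was 918 of 1679 without both libraries that stood apart. Without E9.5 control replicate 2 there were more stage genes, 2718, of which 1558 were advanced, 502 of these being lower ones. At any fold, 15% of genes tested were higher and 12.5% lower in E10.5 controls than in E9.5 controls. Both contrasts use the same E9.5 controls, so these shares are descriptions. The median difference of the higher stage genes was 1.53 in E10.5 mutants and 1.86 in E10.5 controls, each against E9.5 controls. For the lower stage genes it was -0.90 in E10.5 mutants and -1.61 in E10.5 controls. Stage genes were chosen for a large change in E10.5 controls, which by itself favours the larger medians there.

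Not all advanced genes had come equally far. For 381 of the 1210, the 95% interval of the difference between E10.5 mutants and E10.5 controls lay wholly within 2-fold, 279 among the higher and 102 among the lower. By the test against E10.5 controls, 150 advanced genes fell short, with a mutant level significantly less advanced than that of E10.5 controls. In the same test, 106 had gone significantly past the E10.5 control level, 101 of them among the higher genes. A significant difference can lie within 2-fold, so the genes counted by this test can also be among the 381.

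A stage gene was called at the E9.5 level only where the whole 95% interval of the difference between E10.5 mutants and E9.5 controls lay within 2-fold and the mutants differed from E10.5 controls in edgeR's test. This held for 233 genes (1.16% of genes tested), 172 of the 1501 higher (11.46%) and 61 of the 618 lower (9.87%), and 40 of the 233 also passed the test against E9.5 controls with a change under 2-fold. At the edge of this definition, the interval of Tcf7 ran from -0.997 to -0.36 and was just inside, and that of Ak4 ran from -1.01 to -0.43 and was just outside. The number at the E9.5 level was 172 without both libraries that stood apart and 145 without E10.5 mutant replicate 3. Without E10.5 mutant replicates 1, 2 and 3 in turn, the lower ones numbered 39, 35 and 34, and the higher ones numbered 111 without replicate 3. With the trend with gene length removed the total was 215, of which 156 were among the 233. Gene length correlated with the difference between E10.5 and E9.5 controls at 0.383 and with that between E10.5 mutants and E10.5 controls at -0.288 across 12949 genes (Spearman, a description), and its part in the classes was not tested further. A remainder of 702 stage genes, 395 higher and 307 lower, neither passed the test against E9.5 controls nor met the definition of the E9.5 level.

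The 5' genes of the Hox clusters, which pattern the limb from shoulder to digit, were mostly advanced. Of 14 measured members, 8 rose and 2 fell in E10.5 mutants against E9.5 controls, and 9 of the 11 stage genes among them were advanced. Hoxd13 (mm10 chromosome 2), needed for digit formation, was at 121, 156 and 123 CPM in E10.5 mutants, 110, 132 and 95.4 CPM in E10.5 controls and 11.1, 6.65 and 9.07 CPM in E9.5 controls. The mutants overlapped with their age-matched controls and were far above the younger ones. The difference was 3.90 ± 0.29 against E9.5 controls (adjusted p = 2.77e-07) and 0.24 ± 0.28 against E10.5 controls (adjusted p = 0.616). Hoxd12, its neighbour in the cluster, was at 60.4, 65.7 and 50.2 CPM in E10.5 mutants, 98.3, 98.7 and 86.0 CPM in E10.5 controls and 0.2, 0.147 and 0.658 CPM in E9.5 controls. It was near 0 in the youngest buds, and all E10.5 mutants were below all E10.5 controls, a difference of -0.68 ± 0.34 that did not pass the test (adjusted p = 0.203). Hoxa13, which acts with Hoxd13 in the future hand plate, was 7.25 ± 0.53 above E9.5 controls in E10.5 mutants (adjusted p = 1.64e-08), with 20.7 to 24.4 CPM in E10.5 mutants and at most 0.267 CPM in E9.5 controls. Hottip, the long noncoding RNA at the 5' end of the HoxA cluster, was at 2.68, 5.49 and 3.57 CPM in E10.5 mutants and had no count in any E9.5 control, so it was at least 61.3-fold higher over a floor of 3 counts.

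Among the advanced members, Hoxd9 and Hoxd8 fell rather than rose. Both are active early in limb mesenchyme and are turned down as the bud grows. Hoxd9 was at 82.7, 72.6 and 69.7 CPM in E10.5 mutants, 73.8, 73.9 and 96.9 CPM in E10.5 controls and 427, 190.5 and 204 CPM in E9.5 controls. It fell in E10.5 mutants as it did in E10.5 controls, by 1.87 ± 0.28 on the log2 scale (adjusted p = 0.000172), and the highest E9.5 control value was in the replicate that stood apart. Hoxc8 and Hoxc9, members of a cluster that is mainly active in the trunk and hindlimb, were the 5' genes at the E9.5 level. Hoxc8 was at 15.7, 18.3 and 25.6 CPM in E10.5 mutants, 9.66, 9.84 and 8.43 CPM in E10.5 controls and 26.3, 23.5 and 30.5 CPM in E9.5 controls.

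Genes nearer the 3' ends of the clusters, many of them active early in the flank and the base of the limb, were mostly lower. The list holds Hoxb1 to Hoxb9 and the genes up to Hoxa7, Hoxc6 and Hoxd4, and the 5' list runs from Hoxa9, Hoxc8 and Hoxd8 and includes Evx2, so both hold paralogues of like number. Of 22 measured, 0 rose and 15 fell in E10.5 mutants against E9.5 controls by edgeR, and 12 of their 13 stage genes were advanced. Hoxa6 had a positive difference, 0.24 ± 0.39, that did not pass the test (adjusted p = 0.717). Hoxb1, the most 3' gene of the HoxB cluster, was at 0.572, 0.456 and 0.39 CPM in E10.5 mutants, 0.431, 0.488 and 0.458 CPM in E10.5 controls and 13.9, 16.5 and 9.77 CPM in E9.5 controls. Mutant and control buds of E10.5 overlapped, and the mutants were -4.82 ± 0.24 from the E9.5 level (adjusted p = 4.02e-09). Hoxb9 was at 4.84, 4.80 and 4.08 CPM in E10.5 mutants, 4.33, 3.88 and 4.26 CPM in E10.5 controls and 44.2, 68.3 and 86.0 CPM in E9.5 controls, a difference of -3.86 ± 0.29 between E10.5 mutants and E9.5 controls (adjusted p = 2.77e-07). Cdx1, a homeobox regulator of Hox genes in the posterior body, was -5.33 ± 0.40 from the E9.5 level in E10.5 mutants (adjusted p = 3.31e-07) with 0.513 to 1.01 CPM in them and 22.6 to 41.6 CPM in E9.5 controls.

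**Figure D2:**
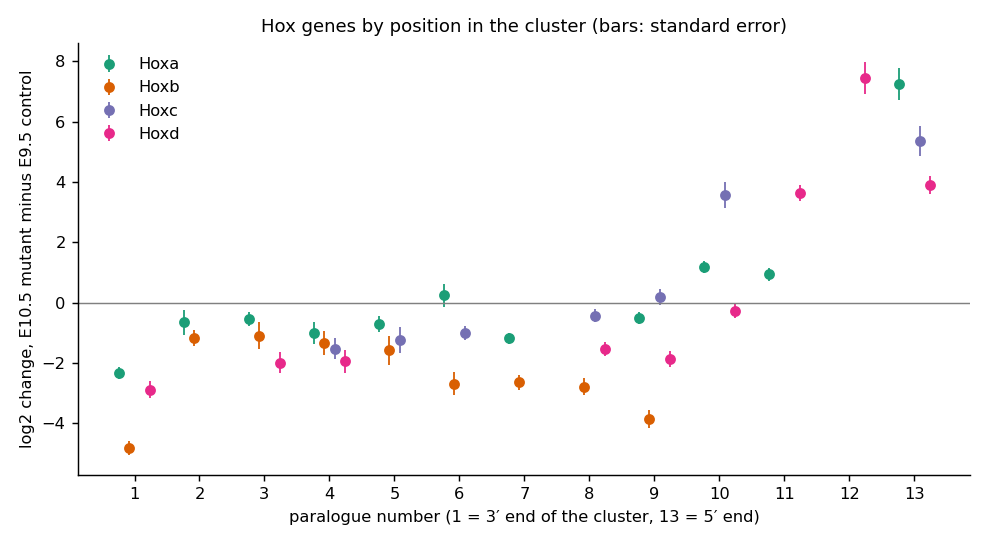
Log2 difference between E10.5 mutants and E9.5 controls (vertical axis) for 36 Hox genes by their paralogue number, from the 3' to the 5' end of the cluster (horizontal axis); points are genes, coloured by cluster, and bars are standard errors. The values run from -4.82 for Hoxb1 to 7.44 for Hoxd12, with 3' genes mostly below 0 and the most 5' genes above it.

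Wherever a gene list had 0 calls in a direction between E10.5 mutants and E9.5 controls, it also had 0 at an unadjusted p under 0.05, which 32.9% of all genes reached, and DESeq2 and limma-voom called 0.

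Some developmental timers, the early embryonic genes that are turned off as tissues mature, had also fallen. Of 17 measured, 0 rose and 8 fell in E10.5 mutants against E9.5 controls by edgeR, and all 6 stage genes among them were advanced, 1 of which, Trim71, fell by less than 2-fold and was also at the E9.5 level. Lin28a, an RNA-binding protein that blocks the maturation of let-7 microRNAs, was at 71.0, 65.3 and 68.7 CPM in E10.5 mutants, 28.4, 17.9 and 21.0 CPM in E10.5 controls and 428, 409 and 394 CPM in E9.5 controls. It fell most of the way, and its level stayed above that of E10.5 controls. The differences were -2.59 ± 0.29 against E9.5 controls (adjusted p = 1.8e-05) and 1.61 ± 0.30 against E10.5 controls (adjusted p = 0.00198). Nr6a1, a nuclear receptor that controls the timing of trunk development, was at 17.2, 15.1 and 16.2 CPM in E10.5 mutants, 9.45, 8.47 and 7.97 CPM in E10.5 controls and 64.1, 88.8 and 78.5 CPM in E9.5 controls. The 3 groups did not overlap, and the fall of Nr6a1 was likewise short of normal, 0.90 ± 0.15 above the E10.5 control level (adjusted p = 0.000819). Prtg (protogenin) and Sall4, a zinc finger factor needed for limb outgrowth, were within 2-fold of E10.5 controls over their whole interval, at -2.29 ± 0.26 and -1.26 ± 0.22 from the E9.5 level (adjusted p = 1.76e-05 and 0.000789).

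Maturation factors, the transcription factors that rise in older mesenchyme, were split. Of 18 measured, 6 rose and 3 fell in E10.5 mutants against E9.5 controls, 11 rose and 1 fell in E10.5 controls against E9.5 controls, and 2 were at the E9.5 level. The 3 falls numbered 1 without E10.5 mutant replicate 3. The nuclear factor I genes were among those that rose. Nfia was at 19.9, 19.6 and 17.5 CPM in E10.5 mutants, 16.8, 20.9 and 17.0 CPM in E10.5 controls and 4.56, 3.33 and 3.31 CPM in E9.5 controls. Its E10.5 groups overlapped, and the difference between E10.5 mutants and E9.5 controls was 2.35 ± 0.19 (adjusted p = 2.77e-07). Nfib and Nfic were 1.57 ± 0.22 and 1.23 ± 0.14 above the E9.5 level (adjusted p = 8.93e-05 and 1e-05) and within 2-fold of E10.5 controls over their whole interval. Ebf2, a factor of connective tissue progenitors, fell short, with 13.1, 13.2 and 10.05 CPM in E10.5 mutants, 33.0, 28.7 and 25.4 CPM in E10.5 controls and 4.29, 5.37 and 5.58 CPM in E9.5 controls. The 3 groups did not overlap, and Ebf2 was 1.25 ± 0.20 above E9.5 controls (adjusted p = 0.000324) and -1.26 ± 0.20 from E10.5 controls (adjusted p = 0.000501). Zfhx4, a large zinc finger homeobox factor, was at the E9.5 level, with 101, 79.3 and 56.0 CPM in E10.5 mutants, 276, 309 and 215 CPM in E10.5 controls and 40.6, 97.5 and 84.9 CPM in E9.5 controls.

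Several hedgehog response genes had advanced, while many genes of the list were short of E10.5 controls. Of 17 posterior limb and hedgehog response genes, 8 rose and 2 fell in E10.5 mutants against E9.5 controls, the falls numbering 1 without E10.5 mutant replicate 3 or E9.5 control replicate 3. In E10.5 controls 13 of the 17 rose against E9.5 controls, and in E10.5 mutants 8 were lower and 1 higher than in E10.5 controls. Of the 11 stage genes, 8 were advanced and 3 were at the E9.5 level, with Boc, the receptor component that rose by less than 2-fold, in both counts. Gli1, the transcription factor whose level reports hedgehog signalling, was at 107, 121 and 116 CPM in E10.5 mutants, 88.4, 71.3 and 96.3 CPM in E10.5 controls and 7.21, 9.16 and 18.4 CPM in E9.5 controls. The E10.5 mutants were the highest of the 3 groups, at 3.30 ± 0.26 above E9.5 controls (adjusted p = 4.63e-07), and their difference from E10.5 controls, 0.43 ± 0.26, did not pass the test (adjusted p = 0.298). Hhip, a secreted inhibitor, and Ptch1, the main receptor, rose by 2.74 ± 0.31 and 1.97 ± 0.24 (adjusted p = 1.16e-05 and 3.09e-05). The ligand Shh was at 12.8, 8.94 and 10.9 CPM in E10.5 mutants, 18.1, 19.9 and 15.6 CPM in E10.5 controls and 2.02, 1.12 and 1.09 CPM in E9.5 controls. Its groups did not overlap, but its rise of 2.96 ± 0.80 (adjusted p = 0.0213) no longer passed the test without any single one of the E9.5 controls.

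Other posterior genes were at the E9.5 level. Grem1, the BMP antagonist that links hedgehog to ridge FGFs, was at 33.1, 23.8 and 29.6 CPM in E10.5 mutants, 67.7, 50.3 and 64.5 CPM in E10.5 controls and 22.1, 26.3 and 26.9 CPM in E9.5 controls. Hand2, an upstream activator of Shh, was at 95.5, 103 and 75.6 CPM in E10.5 mutants, 154, 172 and 148 CPM in E10.5 controls and 69.4, 66.9 and 87.4 CPM in E9.5 controls. For both, mutant values overlapped with the younger controls and lay below every E10.5 control, with differences from E10.5 controls of -1.08 ± 0.30 and -0.79 ± 0.18 (adjusted p = 0.0235 and 0.00721).

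Many cartilage genes were still near the younger level. Of 26 chondrogenic genes measured, 14 rose and 0 fell between E10.5 and E9.5 controls by edgeR (1 at an unadjusted p under 0.05, against 39.5% of all genes in either direction), with a median difference of 0.80. In E10.5 mutants 4 rose and 1 fell against E9.5 controls, with a median of 0.01, beside a median over all genes tested of -0.01. Against E10.5 controls, 13 were lower and 2 higher in E10.5 mutants, out of 6.63% of all genes lower and 7.3% higher, and 5 were at the E9.5 level. Sox9, the master regulator of cartilage, lies on the plus strand of chromosome 11 (mm10, 112782224 to 112787760). It was at 24.5, 22.3 and 18.0 CPM in E10.5 mutants, 105, 139 and 128 CPM in E10.5 controls and 34.2, 26.5 and 29.98 CPM in E9.5 controls. Every mutant value was below every younger control. The difference of -0.48 ± 0.18 from E9.5 controls did not pass the test (adjusted p = 0.0722; 95% interval -0.87 to -0.10), and that from E10.5 controls was -2.52 ± 0.18 (adjusted p = 2.97e-07). Sox5, its partner in chondrocyte differentiation, was at 11.7, 10.545 and 10.6 CPM in E10.5 mutants, 33.7, 40.0 and 37.2 CPM in E10.5 controls and 11.6, 15.5 and 16.1 CPM in E9.5 controls. Col9a1, a cartilage collagen, was at 14.8, 12.0 and 10.7 CPM in E10.5 mutants, 112, 136 and 118 CPM in E10.5 controls and 13.1, 18.7 and 16.1 CPM in E9.5 controls. For both the mutants overlapped with E9.5 controls, and the E10.5 controls stood apart above them.

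The 4 chondrogenic genes that rose in E10.5 mutants against E9.5 controls were Matn1, Matn4, Col27a1 and Fgfr3, and the 1 that fell was Sox6, a count that was 3 and 2 without E9.5 control replicates 1 and 2. Matn1 and Matn4 encode matrilins of the cartilage matrix and were low, at 2.28 to 3.38 and 1.96 to 5.56 CPM in E10.5 mutants. Matn1 was not a stage gene, with at most 0.177 CPM in E10.5 controls and 0.175 CPM in E9.5 controls. Sox6, the other partner of Sox9, was at 12.1, 10.3 and 10.4 CPM in E10.5 mutants, 16.0, 25.6 and 17.2 CPM in E10.5 controls and 14.3, 32.2 and 29.3 CPM in E9.5 controls.

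Of 32 connective tissue matrix genes measured, 18 rose and 2 fell between E10.5 and E9.5 controls, whereas 5 rose and 4 fell in E10.5 mutants against E9.5 controls, and 7 were at the E9.5 level. The 5 rises numbered 8 without E9.5 control replicate 2. Among all genes tested, 13.3% rose and 7.3% fell in E10.5 mutants against E9.5 controls. Col1a2, a chain of type I collagen, was at 257, 274 and 218 CPM in E10.5 mutants, 661, 782 and 731 CPM in E10.5 controls and 111, 215 and 203 CPM in E9.5 controls. Its difference from the E9.5 level, 0.50 ± 0.20, did not pass the test (adjusted p = 0.0941). Eln, which encodes elastin, rose part of the way, with 5.39, 6.44 and 7.18 CPM in E10.5 mutants, 14.3, 16.9 and 15.8 CPM in E10.5 controls and 2.54, 2.13 and 2.20 CPM in E9.5 controls. Mfap4, a microfibril protein, went the other way. It was at 43.1, 45.3 and 39.7 CPM in E10.5 mutants, 128, 149 and 166 CPM in E10.5 controls and 72.4, 72.3 and 66.0 CPM in E9.5 controls, so that mutants were below both control groups.

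By the size of the normal change, with a mean level of at least 1 on the log2 CPM scale, the stage genes that were higher in E10.5 controls and at the E9.5 level in E10.5 mutants were led by Sned1, Col9a1, Col23a1, Shox2, Rftn2, Pnmal2, Runx1t1 and Col1a2. Sned1, an extracellular matrix protein, was at 8.53, 7.79 and 4.96 CPM in E10.5 mutants, 75.9, 63.4 and 90.1 CPM in E10.5 controls and 5.11, 12.4 and 8.48 CPM in E9.5 controls. Shox2, which is required for the upper arm bone, was at 89.2, 67.3 and 61.4 CPM in E10.5 mutants, 222, 302 and 277 CPM in E10.5 controls and 64.8, 40.4 and 45.1 CPM in E9.5 controls. Its small rise of 0.54 ± 0.19 sat at the threshold (adjusted p = 0.0497) and did not pass the test without E10.5 mutant replicate 1 or 2 or without E9.5 control replicate 2 or 3. The stage genes that were lower in E10.5 controls and at the E9.5 level in E10.5 mutants included Sp6, Myc and Tcf7. Sp6, a zinc finger factor of the ridge ectoderm, was at 64.1, 86.1 and 84.6 CPM in E10.5 mutants, 23.3, 30.3 and 22.6 CPM in E10.5 controls and 56.7, 80.6 and 78.3 CPM in E9.5 controls. Myc, a growth regulator, was at 70.0, 76.0 and 70.2 CPM in E10.5 mutants, 34.7, 38.6 and 31.1 CPM in E10.5 controls and 102, 81.5 and 76.2 CPM in E9.5 controls.

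**Figure D3:**
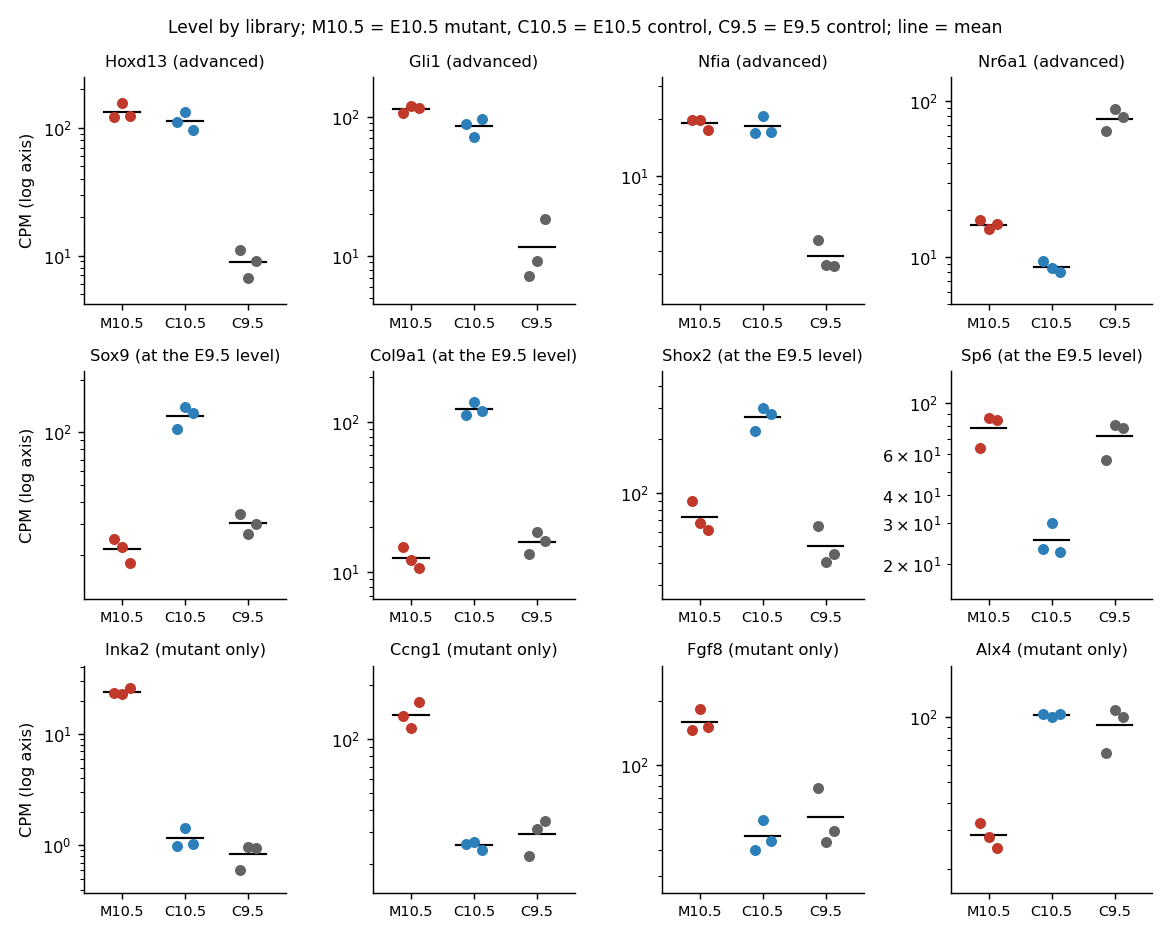
CPM per library on a log axis for 12 genes in E10.5 mutants, E10.5 controls and E9.5 controls; points are libraries and lines are group means. Top row, genes that had advanced (Hoxd13, Gli1, Nfia, Nr6a1); middle row, genes at the E9.5 level (Sox9, Col9a1, Shox2, Sp6); bottom row, genes that differed from both control groups (Inka2, Ccng1, Fgf8, Alx4).

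Proximal limb genes, active where the upper arm forms, had 4 members that rose and 4 that fell of 14 measured in E10.5 mutants against E9.5 controls, and 7 were lower than in E10.5 controls. The 4 falls numbered 2 without E10.5 mutant replicate 3. Against E9.5 controls, 13.3% of all genes tested rose and 7.3% fell in E10.5 mutants. Scx, a tendon progenitor factor, rose part of the way, with 10.03, 20.9 and 11.03 CPM in E10.5 mutants, 38.3, 53.1 and 44.9 CPM in E10.5 controls and 6.49, 3.19 and 3.17 CPM in E9.5 controls. Tbx18, a T-box factor of proximal mesenchyme, was at 16.5, 15.7 and 10.7 CPM in E10.5 mutants, 69.9, 106 and 83.5 CPM in E10.5 controls and 27.3, 22.1 and 22.4 CPM in E9.5 controls. It fell against E9.5 controls by 0.74 ± 0.20 on the log2 scale (adjusted p = 0.0155), while the E10.5 controls were 1.85 ± 0.20 above them.

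Limb initiation genes, which start the bud in the flank, were mostly lower. Of 14 measured, 1 rose and 9 fell in E10.5 mutants against E9.5 controls. Fgf10, the mesenchymal signal to the ridge, was at 24.3, 19.4 and 20.2 CPM in E10.5 mutants, 25.9, 25.6 and 27.5 CPM in E10.5 controls and 36.4, 50.04 and 44.1 CPM in E9.5 controls, close to a normal day's change. Lef1, a mediator of Wnt signalling, was -1.16 ± 0.12 from the E9.5 level in E10.5 mutants (adjusted p = 5.18e-06) and within 2-fold of E10.5 controls over its whole interval. Prrx1 and Tbx5, which mark the limb mesenchyme itself, went against the normal change. Prrx1 was at 283, 181 and 153 CPM in E10.5 mutants, 533, 551 and 528 CPM in E10.5 controls and 353, 418 and 369.6 CPM in E9.5 controls. Tbx5, the forelimb identity factor, was at 63.0, 50.8 and 65.5 CPM in E10.5 mutants, 148, 165 and 166 CPM in E10.5 controls and 97.3, 125 and 109 CPM in E9.5 controls. Both were -0.89 from the E9.5 level, with standard errors of 0.16 and 0.13 (adjusted p = 0.000719 and 0.000173). Isl1 was the 1 that rose, by 2.82 ± 0.41 (adjusted p = 0.00014).

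Anterior limb genes, which are restricted to the thumb side, included 3 that changed in E10.5 mutants only. Of 14 measured, 9 fell and 1 rose in E10.5 mutants against E9.5 controls, while 4 fell and 3 rose in E10.5 controls against E9.5 controls. Alx4, a homeobox factor that keeps Shh out of the anterior bud, was at 32.6, 28.03 and 24.8 CPM in E10.5 mutants, 103, 99.97 and 103 CPM in E10.5 controls and 68.2, 108 and 99.9 CPM in E9.5 controls. Controls of both ages overlapped and all mutants were lower, at -1.69 ± 0.25 from the E9.5 level (adjusted p = 0.000181). Lhx9, a LIM factor of distal mesenchyme, and Irx5, an Iroquois factor of the anterior margin, were -1.27 ± 0.20 and -1.55 ± 0.27 from the E9.5 level (adjusted p = 0.000269 and 0.000601).

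Retinoic acid genes, whose signal sets the proximal limb, were divided. Of 17 measured, 7 rose and 6 fell in E10.5 mutants against E9.5 controls, and 3 rose without E10.5 mutant replicate 2. Rdh10, which makes the precursor of retinoic acid, was at 20.4, 21.0 and 15.8 CPM in E10.5 mutants, 19.005, 19.4 and 18.1 CPM in E10.5 controls and 45.4, 47.6 and 52.2 CPM in E9.5 controls, a full step. Cyp26b1, the enzyme that clears retinoic acid from the distal bud, was at 147, 113 and 119 CPM in E10.5 mutants, 225, 252 and 278 CPM in E10.5 controls and 41.0, 60.9 and 55.6 CPM in E9.5 controls. It rose by 1.27 ± 0.22 (adjusted p = 0.000634) and was still 0.99 ± 0.22 below E10.5 controls on the log2 scale (adjusted p = 0.00614). Of 20 genes of dorsal and ventral patterning, 4 rose and 6 fell, and 3 fell without E10.5 mutant replicate 1 or 2. Both lists stand beside 13.3% of all genes tested that rose and 7.3% that fell. Lmx1b, the dorsal determinant of the mesenchyme, was -1.31 ± 0.21 from the E9.5 level in E10.5 mutants (adjusted p = 0.000267).

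A separate class held genes that changed at least 2-fold in E10.5 mutants against E9.5 controls, differed the same way from E10.5 controls, and had an interval within 2-fold between the control stages. There were 247 of these (1.23% of genes tested), 199 higher and 48 lower. Their number was 188 without both libraries that stood apart and 141 without E10.5 mutant replicate 3. The median difference of the higher ones was 1.35 in E10.5 mutants and 0.13 in E10.5 controls, each against E9.5 controls, a contrast that the definition fixes.

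Targets of p53, the transcription factor activated by DNA damage, gave that class 11 of their 40 genes, the most of any gene list, and theirs was the longest list. Surface ectoderm gave 7 of 27, erythroid genes 5 of 24 and anterior limb genes 3 of 14, beside 1.23% of all genes tested. Of 40 measured, 31 rose and 0 fell in E10.5 mutants against E9.5 controls by edgeR, with a median difference of 1.01, against 10 that rose and 7 that fell in E10.5 controls, with a median of 0.01. Cdkn1a (p21), an inhibitor of cell cycle kinases, was at 171, 186 and 199 CPM in E10.5 mutants, 23.5, 24.9 and 20.9 CPM in E10.5 controls and 10.6, 9.11 and 13.8 CPM in E9.5 controls. It was a stage gene that went past the E10.5 control level, at 4.05 ± 0.13 above E9.5 controls (adjusted p = 2.81e-11). Inka2, an inhibitor of the kinase Pak4, was at 23.3, 22.8 and 25.8 CPM in E10.5 mutants, 0.984, 1.44 and 1.04 CPM in E10.5 controls and 0.599, 0.971 and 0.947 CPM in E9.5 controls. The control groups overlapped and the mutants were 4.82 ± 0.20 above E9.5 controls (adjusted p = 9.37e-10). Ccng1 (cyclin G1) was at 135, 114 and 161 CPM in E10.5 mutants, 25.9, 26.5 and 23.8 CPM in E10.5 controls and 22, 31.4 and 34.7 CPM in E9.5 controls. Mdm2, the ubiquitin ligase that limits p53, was at 147, 138 and 159 CPM in E10.5 mutants and between 56.2 and 68.2 CPM in all 6 controls. Trp53, the gene of p53 itself, was at 304, 288 and 284 CPM in E10.5 mutants and 346, 282 and 285 CPM in E9.5 controls, a difference of -0.06 ± 0.10 (adjusted p = 0.731).

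Among the p53 targets, Pmaip1 followed the normal day. This inducer of cell death, also called Noxa, was at 35.4, 38.4 and 41.4 CPM in E10.5 mutants, 42.4, 51.3 and 64.2 CPM in E10.5 controls and 1.87, 1.26 and 1.19 CPM in E9.5 controls. It was within 2-fold of E10.5 controls over its whole interval, at 4.74 ± 0.24 above E9.5 controls (adjusted p = 7.93e-09).

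The promoters of Cdkn1a, Inka2 and Ccng1 are shown because these genes rose clearly and their 300 bases each hold at least 1 match to the p53 half-site, the 10-letter motif that p53 is known to bind in pairs. Each runs 5' to 3' on the gene's strand from 250 bases before to 50 bases after the RefSeq start (build GRCm38.p6), and capitals mark the matches. The Cdkn1a window is chr17:29090729-29091028 on the plus strand, with matches starting 73 and 51 bases before the start. The Inka2 window is chr3:105705208-105705507 on the plus strand, with 1 match starting 81 bases before the start, and the Ccng1 window is chr11:40755237-40755536 on the minus strand, with 1 match starting 185 bases before it.
Cdkn1a: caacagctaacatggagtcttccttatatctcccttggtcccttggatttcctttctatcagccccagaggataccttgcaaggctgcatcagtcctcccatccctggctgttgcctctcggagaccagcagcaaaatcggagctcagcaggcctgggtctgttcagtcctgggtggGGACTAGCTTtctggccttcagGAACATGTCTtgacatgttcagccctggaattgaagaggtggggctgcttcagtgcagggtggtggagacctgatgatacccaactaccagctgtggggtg
Inka2: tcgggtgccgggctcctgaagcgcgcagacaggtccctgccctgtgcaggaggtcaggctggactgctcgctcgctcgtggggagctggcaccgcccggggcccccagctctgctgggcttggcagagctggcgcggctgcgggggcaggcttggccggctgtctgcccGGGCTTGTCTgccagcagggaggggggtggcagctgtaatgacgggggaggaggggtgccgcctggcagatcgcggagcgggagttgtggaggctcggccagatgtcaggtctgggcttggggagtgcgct
Ccng1: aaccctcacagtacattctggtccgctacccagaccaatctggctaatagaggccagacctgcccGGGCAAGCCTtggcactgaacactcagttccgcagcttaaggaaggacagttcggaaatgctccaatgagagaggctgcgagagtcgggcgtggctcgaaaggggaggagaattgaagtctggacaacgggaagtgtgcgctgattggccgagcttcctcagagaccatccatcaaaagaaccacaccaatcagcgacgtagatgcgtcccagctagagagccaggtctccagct
The motif reads the same on both strands, so both were searched at once. RefSeq promoters were at hand for 30 of the 40 p53 targets (75%), too few for a share over the list to be read, and 12 of the 30 held a match. These were 9 of the 23 that rose and 3 of the 7 that were not called, and Gdf15, Fas, Eda2r and Btg2, which also rose, held none. Over all 27025 genes with a promoter, 9.55% held one. A pair of matches with a spacer of at most 3 bases was found in 0 of the 30 and in 5 of the 27025. Such matches describe letters and do not show that p53 binds there.

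Outside the p53 list, genes that changed in mutants and not in controls included Zfp365, Cgref1, Def6, Wif1 and Kcnh2. Zfp365, a zinc finger protein linked to genome stability, was at 34.6, 28.3 and 39.0 CPM in E10.5 mutants, 3.26, 3.86 and 3.19 CPM in E10.5 controls and 2.39, 3.66 and 3.21 CPM in E9.5 controls. Its difference from E9.5 controls was 3.45 ± 0.22 (adjusted p = 3.69e-08). Wif1, a secreted Wnt inhibitor, was at 4.64, 2.86 and 4.02 CPM in E10.5 mutants, 15.3, 26.2 and 21.6 CPM in E10.5 controls and 19.2, 15.7 and 13.3 CPM in E9.5 controls. It was -2.06 ± 0.23 from the E9.5 level (adjusted p = 1e-05), with all mutants below all controls.

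Ridge genes were at or above the younger level. Of 18 apical ectodermal ridge genes, 12 rose and 0 fell in E10.5 mutants against E9.5 controls by edgeR, with a median difference of 1.11, whereas 4 rose and 5 fell in E10.5 controls, with a median of -0.34. Fgf8, the main ridge FGF, was at 146, 184 and 152 CPM in E10.5 mutants, 40.0, 54.8 and 43.9 CPM in E10.5 controls and 78.1, 43.4 and 49.2 CPM in E9.5 controls. All mutants were above all controls, at 1.497 ± 0.33 from the E9.5 level (adjusted p = 0.00452). Dlx1, a homeobox factor, was at 27.1, 30.4 and 32.7 CPM in E10.5 mutants and between 7.36 and 12.2 CPM in the 6 controls. Jag2, a Notch ligand that restrains the ridge, was 1.16 ± 0.19 above E9.5 controls (adjusted p = 0.000329). Sp6, Dlx3 and the ventral factor En1 were at the E9.5 level. Fgf4, a later ridge FGF, had advanced, with 12.0, 5.38 and 3.26 CPM in E10.5 mutants, 3.05, 5.34 and 4.22 CPM in E10.5 controls and at most 0.15 CPM in E9.5 controls.

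Genes that respond to FGF in the mesenchyme had calls near the share of all genes. Of 15 measured, 2 rose and 1 fell in E10.5 mutants against E9.5 controls, beside 13.3% and 7.3% of all genes. Those that rose were Spry4 and Etv4 and the 1 that fell was Dusp5. Without E9.5 control replicate 1 there were 4 rises and 2 falls, and without E10.5 mutant replicate 1 or 2 there was 1 rise. Spry4, an inhibitor of FGF signalling, was at 99.9, 76.4 and 77.2 CPM in E10.5 mutants, 63.1, 59.4 and 57.4 CPM in E10.5 controls and 53.5, 57.3 and 48.4 CPM in E9.5 controls. Etv4 rose by 0.51 ± 0.14 (adjusted p = 0.0171), and this call was lost without E10.5 mutant replicate 1 or 2 or E9.5 control replicate 2 or 3.

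Markers of other cell types moved with these groups, and their part in the results above was not tested. Of 27 surface ectoderm genes, 21 rose and 0 fell in E10.5 mutants against E9.5 controls by edgeR. Their summed level was 1156 to 1668 CPM in E10.5 mutants, 594 to 827 CPM in E10.5 controls and 589 to 716 CPM in E9.5 controls, without overlap between mutants and either control group. Krt5, a keratin of basal epidermis, was at 176, 274 and 282 CPM in E10.5 mutants, 77.7, 135 and 81.3 CPM in E10.5 controls and 24.3, 31.2 and 28.9 CPM in E9.5 controls. Of 24 erythroid genes, 20 rose and 0 fell, with a summed level of 6615 to 20786 CPM in E10.5 mutants, 3124 to 6424 CPM in E10.5 controls and 2589 to 4866 CPM in E9.5 controls. That count was 12 without E10.5 mutant replicate 3, the library with the most haemoglobin, and 6 without both libraries that stood apart.

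Of 23 macrophage genes, 20 rose and 0 fell in E10.5 mutants against E9.5 controls by edgeR, and 18 rose in E10.5 controls. Their summed level was 77.0 to 128 CPM in E10.5 mutants, 43.5 to 59.6 CPM in E10.5 controls and 8.42 to 11.4 CPM in E9.5 controls. Csf1r, the receptor for the macrophage growth factor, was at 8.07, 13.7 and 10.7 CPM in E10.5 mutants, 5.08, 7.202 and 5.002 CPM in E10.5 controls and 0.249, 0.44 and 0.988 CPM in E9.5 controls. Of 20 genes of muscle precursors, which migrate into the bud from the somites, 11 rose and 0 fell by edgeR, a count that was 7 without E10.5 mutant replicate 2 or E9.5 control replicate 2. Msc (musculin) was at 9.56, 18.0 and 15.7 CPM in E10.5 mutants, 7.71, 6.67 and 5.92 CPM in E10.5 controls and 0.524, 0.128 and 0.206 CPM in E9.5 controls. Of 32 endothelial genes, 9 rose and 7 fell, beside 13.3% and 7.3% of all genes, and 3 fell without E10.5 mutant replicate 3. In E10.5 controls 5 of them rose and 7 fell against E9.5 controls. Vwf, the clotting factor carrier of vessels, was 2.83 ± 0.23 above E9.5 controls (adjusted p = 4.63e-07), while Etv2, an early endothelial factor, was -2.97 ± 0.40 from them (adjusted p = 8.78e-05). Among 12 platelet genes 8 rose, and this count was 5, 3, 5 and 3 without E10.5 mutant replicates 2 and 3 and E9.5 control replicates 1 and 3 in turn, 1 with only the libraries compared and 0 without both libraries that stood apart.

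Metabolic and growth genes were measured as further lists. Of 25 hypoxia and glycolysis genes, 13 fell and 1 rose in E10.5 mutants against E9.5 controls, and 15 fell and 2 rose in E10.5 controls. Ldha, which makes lactate, was at 1156, 1112 and 1147 CPM in E10.5 mutants, 961, 872 and 982 CPM in E10.5 controls and 3706, 2222 and 1875 CPM in E9.5 controls, the highest value again in the E9.5 control that stood apart. The count of falls was 7 without both libraries that stood apart. Of 24 ribosome biogenesis genes, 8 fell in E10.5 mutants and 21 in E10.5 controls, and 8 were higher in E10.5 mutants than in E10.5 controls. The count of 8 falls was 4, 3 and 4 without E10.5 mutant replicates 1, 2 and 3. Of 32 DNA replication genes, 15 fell in E10.5 mutants and 11 in E10.5 controls, with a median difference of -0.28 and -0.24. The replication count was 7 and 8 without E10.5 mutant replicates 2 and 3, and 1 when only the 6 libraries compared were fitted. Of 28 mitosis genes, 10 fell in E10.5 mutants, while 6 fell and 1 rose in E10.5 controls, and 7 were lower in E10.5 mutants than in E10.5 controls. The count of 10 was 3 and 5 without those replicates and 18 without E9.5 control replicate 1. With only the 6 libraries compared in the fit, 1 mitosis gene and 1 ribosome biogenesis gene fell. Of 18 cohesin genes, 2 rose and 1 fell in E10.5 controls against E9.5 controls, and 4 were lower in E10.5 mutants than in E10.5 controls. Over all genes tested, these shares were 15%, 12.5% and 6.63% in turn, and 7.3% fell in E10.5 mutants against E9.5 controls. In E10.5 mutants against E9.5 controls, Smc3 and Cdca5 fell, at -0.41 ± 0.11 and -0.30 ± 0.09 (adjusted p = 0.0121 and 0.0217), and 9 fell without E9.5 control replicate 1, 0 without E10.5 mutant replicate 2 and 1 without E10.5 mutant replicate 3.

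Of 20 integrated stress response genes, 1 rose and 3 fell in E10.5 mutants against E9.5 controls, while 2 rose and 12 fell in E10.5 controls. Of 13 pericyte genes 3 rose and 2 fell, of 16 Schwann cell and neuron genes 4 rose and 2 fell, and of 16 trunk tissue genes 3 rose and 1 fell in E10.5 mutants. These small counts stand beside 13.3% of all genes tested that rose and 7.3% that fell. Without E9.5 control replicate 2, 5 pericyte genes rose and 6 stress response genes fell. Without any other single one of these libraries, 1 pericyte gene fell, and without E10.5 mutant replicate 3, 1 Schwann cell or neuron gene fell. Trunk genes had 0 falls without E10.5 mutant replicate 1, 2 or 3 or E9.5 control replicate 3, and 2 without E9.5 control replicate 1.

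Imprinted growth genes had 6 that fell and 1 that rose of 20 measured, the 1 rise being lost without E10.5 mutant replicate 2 or 3. Dlk1, a growth regulator of immature mesenchyme, was at 168, 167 and 126 CPM in E10.5 mutants, 264, 239.8 and 259 CPM in E10.5 controls and 538, 491 and 538 CPM in E9.5 controls. The 3 groups did not overlap, and Dlk1 had gone past the E10.5 control level, at -0.73 ± 0.20 from it (adjusted p = 0.0242). Of 12 mitochondrially encoded genes, 6 rose in E10.5 mutants, and in E10.5 controls 0 rose and 0 fell by edgeR, beside 1 and 2 at an unadjusted p under 0.05. Without E9.5 control replicate 1, 10 rose in E10.5 mutants. The count was 4 without any other single one of the libraries compared, and 2 with only these libraries in the fit. These genes took 0.987% to 1.08% of counts in E10.5 mutants, 0.531% to 0.758% in E10.5 controls and 0.542% to 0.662% in E9.5 controls.

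**Figure D4:**
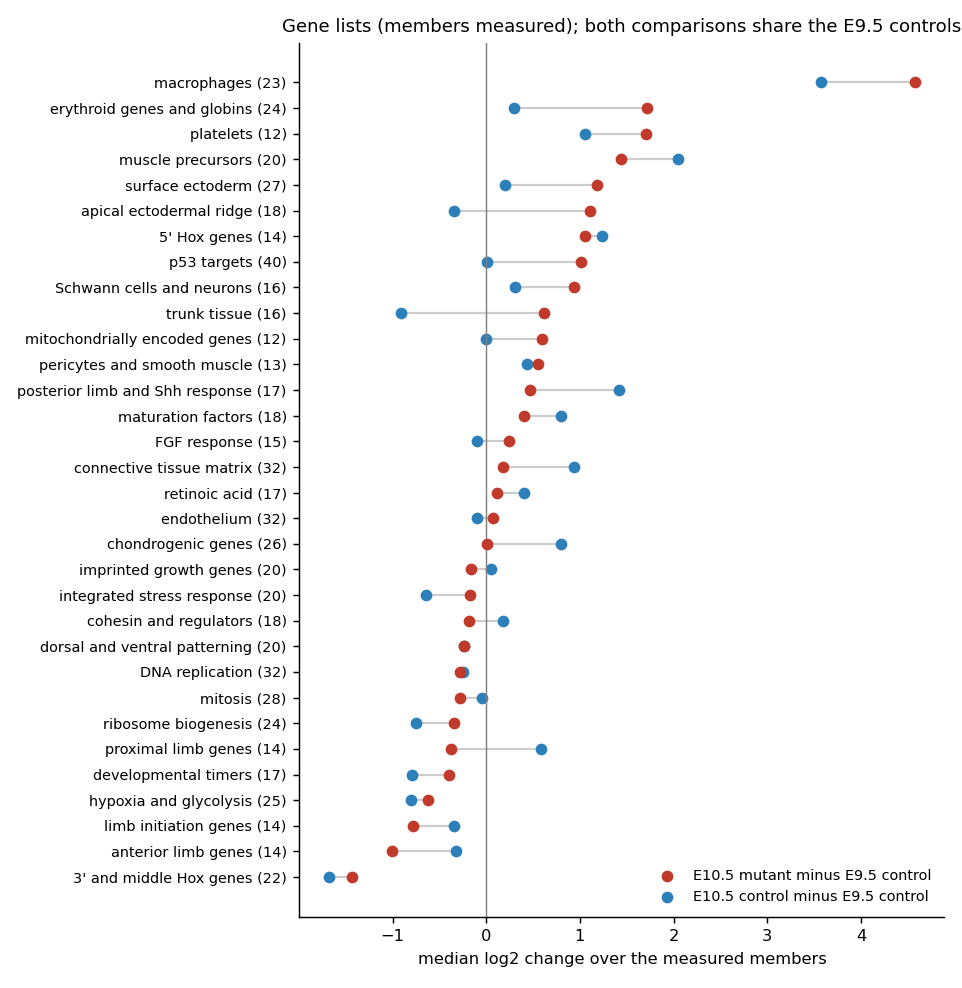
Median log2 difference from the shared E9.5 controls over the measured members of each gene list (number in brackets), with E10.5 mutants in red and E10.5 controls in blue, joined by a grey line. Chondrogenic genes are at 0.01 in mutants and 0.80 in controls, and p53 targets are at 1.01 in mutants and 0.01 in controls.

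A small set of stage genes went in opposite directions. There were 14, of which 7 were higher in E10.5 controls and lower in E10.5 mutants than in E9.5 controls, namely Tbx18, Smoc1, Mfap4, Egflam, Gpr4, Fam69c and Gm16702. The other 7, namely Atg9b, Kcnj4, Btbd19, Ttll9, Cd80, Pmm1 and Gjb5, were lower in E10.5 controls and higher in E10.5 mutants. Smoc1, a secreted modulator of BMP signalling, was at 16.2, 11.52 and 8.39 CPM in E10.5 mutants, 66.5, 68.5 and 70.9 CPM in E10.5 controls and 35.9, 21.3 and 22.8 CPM in E9.5 controls. Atg9b, a membrane protein of autophagy, was at 13.3, 13.4 and 26.6 CPM in E10.5 mutants, 0.902, 1.26 and 1.59 CPM in E10.5 controls and 4.69, 2.44 and 4.49 CPM in E9.5 controls. In neither gene did any of the 3 groups overlap.

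Libraries of E11.5, which entered these classes only through the shared estimate of spread, were used to follow the same genes a day later. Between E11.5 mutants and E11.5 controls, 1613 genes were higher (8.02%) and 1916 were lower (9.52%). Of the 172 genes held at the E9.5 level that are higher in E10.5 controls, 144 were lower in E11.5 mutants than in E11.5 controls (83.7%) and 0 were higher by edgeR, also 0 at an unadjusted p under 0.05 that 30.5% of all genes reached, with a median difference of -0.98. Of the 61 that are lower in E10.5 controls, 42 were higher in E11.5 mutants (68.9%) and 0 were lower by edgeR, with 1 at an unadjusted p under 0.05. This was not particular to the E9.5 level, whose definition requires a difference from E10.5 controls. The median was also -0.99 in the 395 higher stage genes of the remainder and in the 120 advanced ones that fell short. For lower stage genes, these medians were 0.63 and 0.93, beside 0.94 at the E9.5 level. Sox9 was at 28.5, 27.9 and 17.6 CPM in E11.5 mutants and 208, 192 and 169.8 CPM in E11.5 controls. Of the 199 genes that were higher in E10.5 mutants only, 114 were higher in E11.5 mutants (57.3%), and of the 48 that were lower, 29 were lower (60.4%). Of the 279 higher genes that had advanced to within 2-fold of E10.5 controls, 94 were lower in E11.5 mutants (33.7%) and 14 were higher, with a median of -0.37. This class overlaps with that at the E9.5 level, in 16 higher and 7 lower genes that changed by under 2-fold against both control groups. Nfia, Nfib and Nfic were among those that were lower, at -1.0001, -0.99 and -0.80 (adjusted p = 0.00105, 0.0046 and 0.000785), after differing from E10.5 controls by -0.07 to 0.06 at E10.5.

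**Figure D5:**
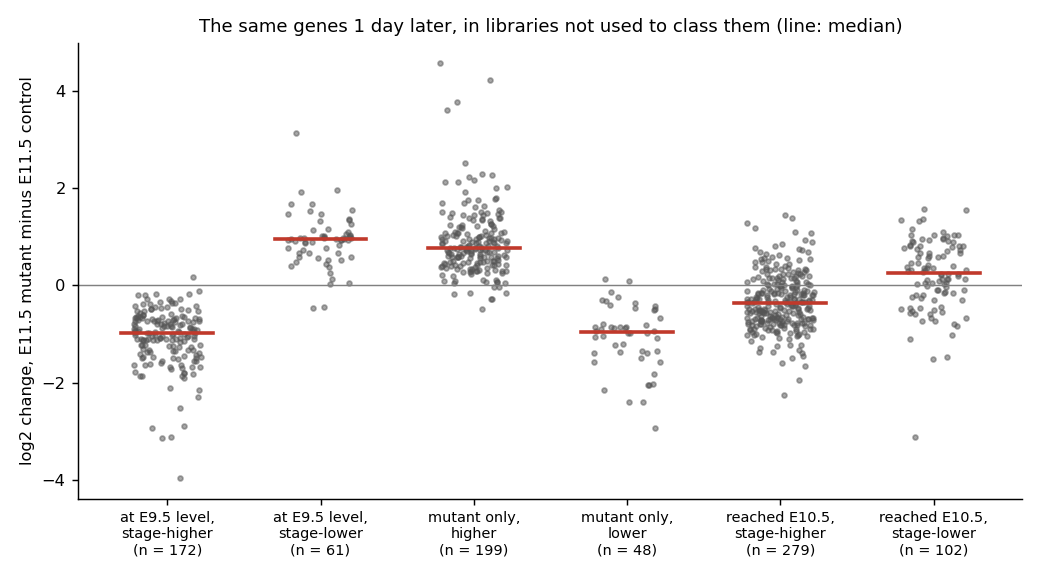
Log2 difference between E11.5 mutants and E11.5 controls for the genes of each class formed at E10.5, with genes as points, spread sideways for visibility, and the median as a line. The medians are -0.98 and 0.94 for genes at the E9.5 level, 0.77 and -0.96 for genes that changed in mutants only, and -0.37 and 0.26 for advanced genes within 2-fold of E10.5 controls, each with the higher genes first; 16 higher and 7 lower genes are drawn in both of these classes.

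Comparisons that share no library with E10.5 mutants and E9.5 controls gave the same question another ruler. Between E11.5 and E10.5 controls, 812 genes were at least 2-fold higher (4.04%) and 160 at least 2-fold lower (0.795%). Of the 812, 281 were higher (34.6%) and 42 lower (5.17%) in E10.5 mutants against E9.5 controls, with a median difference of 0.79. Of the 160, 50 were lower (31.2%) and 37 higher (23.1%). Over all genes tested, 13.3% were higher and 7.3% lower in E10.5 mutants against E9.5 controls, so the 160 were above both shares. With the genotypes exchanged, E10.5 controls against E9.5 mutants, 2448 genes were higher (12.2%) and 1671 lower (8.31%). Of these, 994 were also higher in E10.5 mutants against E9.5 controls, 40.6% of the 2448 and 37.1% of the 2678. Another 546 were lower in both, 32.7% of the 1671 and 37.2% of the 1468. At E9.5 itself, mutants differed from controls for 37 genes (0.184%).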

How the data were processed

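Gene counts per library were used as deposited. Per the file headers, the authors counted read pairs over exons with featureCounts 1.6.4, strand setting 2, on GENCODE vM22; the submitters' processing notes name cutadapt, STAR, limma and mm10. The authors' deposited table of log2 FPKM values, with 14692 genes, served only as an alternative. Each of the 18 libraries was assigned to 1 of 6 groups by stage and genotype from its labels. The members and gene lists were chosen with earlier results of these data known.

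All 18 libraries were fitted together in edgeR 4.0.16 (R 4.3.3) after filterByExpr, which left 20118 of 55487 genes, with TMM scaling, robust quasi-likelihood tests and Benjamini-Hochberg adjustment over all genes tested. The biological coefficient of variation was 0.231. Standard errors and 95% intervals are those of the fitted log2 changes. The test was first checked on simulated counts. Alternatives were DESeq2 1.42.0, limma 3.58.1, other scaling and low-count filters, 6 or 9 libraries alone, each library left out, both libraries that stood apart left out, the replicate number as a block, the trend with gene length removed and a 1.5-fold margin.

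Named genes are Esco2, Cdkn1a, Mdm2, Trp53, Fgf8, Shh, Sox9, Lin28a, up to 4 genes of each list by adjusted p, the 10 largest rises and 10 largest falls among non-overlapping called genes, and up to 8 genes in each direction of each class, at a mean log2 CPM of at least 1. Some of these are not printed, and certain genes are not reported here. Named after their values were seen were Prrx1, Pitx1, Hoxd9, Hoxd8, Hoxc9, Hoxa6, Zfhx4, Boc, Ptch1, Grem1, Hand2, Sox5, Fgfr3, Mfap4, Myc, Ccng1, Tbx18, Fgf10, Irx5, Jag2, Dlx3, En1, Fgf4, Ak4, Trim71, Gdf15, Fas, the FGF response genes and the genes that moved in opposite directions.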

Additional observations from a re-analysis of the deposited data

Results flagged for a closer look

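Of the 2119 stage genes, 630 differed between E10.5 mutants and E10.5 controls in edgeR's test of that difference, which is also the test of whether their changes from the shared E9.5 controls were unequal. They comprised 486 of the 1501 genes higher in E10.5 controls, with a median difference from E9.5 controls of 0.61 in E10.5 mutants and 1.75 in E10.5 controls. The other 144 were among the 618 lower genes, with a median of -0.27 in E10.5 mutants and -1.51 in E10.5 controls. The genes were chosen by their change in E10.5 controls and by a difference from E10.5 mutants. That choice favours such gaps, so the medians are descriptions.

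For 14 stage genes the change from E9.5 controls passed the test in opposite directions in E10.5 mutants and E10.5 controls. In all 14, the 3 E10.5 mutants did not overlap with the 3 E9.5 controls, which the choice of genes that passed this test largely brings about. The part that ectoderm, blood or mitochondrial counts have in these differences was not tested.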

How the results depend on the processing

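With only the libraries compared in the fit, 1147 genes were higher and 360 lower in E10.5 mutants than in E9.5 controls, 207 of the E11.5 stage genes moved the same way in E10.5 mutants, and 6197 genes were called between E10.5 controls and E9.5 mutants. Leaving out 1 library at a time gave 1949 to 2851 higher genes and 723 to 2351 lower genes, 980 to 1558 advanced genes, 145 to 248 genes at the E9.5 level, 141 to 271 genes that changed in mutants and not in controls, and 3831 to 6178 mirror calls. With a 1.5-fold margin, 137 genes changed in mutants and not in controls. The cause of these shifts was not tested. No other alternative moved these counts by over 1.5 times, and no count or named gene reversed. Of 168 called named genes, 132 passed the test under every alternative and 36 missed it in at least 1. Membership moved more than counts did. Without both libraries that stood apart, 111 of the 233 genes at the E9.5 level and 127 of the 247 changed in mutants only were placed in the same class.

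Libraries with the same replicate number did not deviate together, with correlations of -0.055 to 0.073, so the numbers do not pair them. With the replicate block there were 2556 higher and 1275 lower genes, 1178 advanced, 214 at the E9.5 level and 238 changed in mutants only. Depth limits the low genes: a gene with 0 counts in a group is bounded only by a floor of 3 counts, which covers counting error alone.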
